A study of Mus musculus with 4 samples.

Results

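The regions described here are peaks of open chromatin near microRNA genes in 3T3-L1 cells. A peak was a member when it lay on chromosomes 1 to 19, within 5000 bp of a gene that the GENCODE M21 annotation types as miRNA, and more than 1000 bp from every protein-coding start site. The rule selected 3066 of the 289298 peaks of biosample 1 on these chromosomes and 904 of the 94658 peaks of biosample 2. It used only positions, not scores. The annotation gave 2054 such genes, of which 1084 carry a Mir symbol and nearly all the others a Gm symbol, given to predicted genes. MicroRNA genes within 10000 bp of each other were joined, on either strand, which made 1700 loci.

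3T3-L1 is an immortalized mouse line of embryonic fibroblasts, recorded in the labels under strain C57BL/6J, and is widely used as a preadipocyte that can be turned into fat cells. No treatment, genotype change or differentiation step is named, and sex and age were not recorded. DNase-seq maps open chromatin by sequencing the ends of DNA cut by DNase I in nuclei. Biosample 1 comprised technical libraries 1 and 3 and biosample 2 technical libraries 1 and 2, and each biosample has 1 peak list and 1 hotspot list made from its pooled libraries, so no value has a spread between replicates. No label says that the biosamples were grown separately, and differences between the lists may be technical. A hotspot is a broader region of enriched cutting, and all member peaks lay in a hotspot of their own list. The whole lists held 298793 and 97430 peaks, and the number of reads behind either is unknown. The score of a peak is the authors' own value, with a definition not given in the sources used here, and is given below as a percentile, the share of peaks of the same list that rank lower, with tied scores at their middle rank. The 95% Wilson intervals cover counting error only, and peaks and loci are not replicates.

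MicroRNAs are short RNAs cut from hairpins in longer transcripts. Bases 2 to 8 of the mature strand, the seed, pair with messenger RNAs and lower their translation and stability. Several microRNAs are known to act on fat cell formation: the miR-26 and miR-30 families promote it, while miR-27 and miR-130 lower the adipogenic regulator PPARG. DNase-seq measures neither the microRNAs nor their transcripts, and an open site near a hairpin need not act on that hairpin.

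Mature microRNAs of listed loci whose peaks ranked high in both lists are shown here in RNA letters, 5′ to 3′, with the seed in capitals, from RefSeq on GRCm38.p6. Symbols of 931 of the 1084 Mir genes were found in that table. The miR-199 microRNAs come from 3 loci, and the 3p strands of Mir199a-1, Mir199a-2 and Mir199b have the same seed.
miR-199a-3p: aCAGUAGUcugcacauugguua
miR-199b-3p: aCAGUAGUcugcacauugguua
miR-199a-5p: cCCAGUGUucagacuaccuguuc
miR-214-3p: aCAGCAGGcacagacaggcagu
miR-22-3p: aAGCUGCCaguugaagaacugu
miR-21a-5p: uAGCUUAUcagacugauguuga
miR-210-3p: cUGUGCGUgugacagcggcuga

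Families compared across their loci are shown in the same way, as pairs that share a seed.
miR-26a-5p: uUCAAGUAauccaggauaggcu
miR-26b-5p: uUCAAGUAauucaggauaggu
miR-29a-3p: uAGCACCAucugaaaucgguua
miR-29c-3p: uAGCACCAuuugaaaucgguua
let-7i-5p: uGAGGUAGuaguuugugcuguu
let-7b-5p: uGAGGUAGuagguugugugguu
miR-125b-5p: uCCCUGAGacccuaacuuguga
miR-125a-5p: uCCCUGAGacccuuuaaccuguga
miR-103-3p: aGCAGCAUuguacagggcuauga
miR-107-3p: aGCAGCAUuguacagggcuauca

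The strongest biosample 1 peak of each of 5 loci of the mesenchymal list follows, on the plus strand of GRCm38. Capitals mark matches to AP-1 (TGANTCA), TEAD (GGAATG), the CTCF core, RUNX (TGTGGT) or C/EBP (TTGCNNAA) on either strand. The peak upstream of Mir199a-1 holds an AP-1 match and that upstream of Mir22 a TEAD match, while no letters of these motifs were found in the other 3 windows.
Mir199a-2 chr1:162217496-162217645: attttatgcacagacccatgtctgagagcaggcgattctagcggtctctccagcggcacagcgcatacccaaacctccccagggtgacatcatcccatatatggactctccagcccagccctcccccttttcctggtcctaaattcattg
Mir22 chr11:75461196-75461345: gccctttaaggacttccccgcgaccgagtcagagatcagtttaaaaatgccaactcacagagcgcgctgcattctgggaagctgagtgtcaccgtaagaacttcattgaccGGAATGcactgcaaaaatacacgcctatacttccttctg
Mir199a-1 chr9:21496916-21497065: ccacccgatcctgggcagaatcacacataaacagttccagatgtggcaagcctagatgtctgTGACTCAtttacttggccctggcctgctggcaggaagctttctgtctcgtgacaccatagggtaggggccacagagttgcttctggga
Mir199b chr2:32318096-32318245: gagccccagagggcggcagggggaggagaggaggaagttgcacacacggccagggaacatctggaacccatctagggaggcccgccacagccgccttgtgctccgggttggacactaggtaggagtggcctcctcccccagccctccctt
Mir21a chr11:86587076-86587225: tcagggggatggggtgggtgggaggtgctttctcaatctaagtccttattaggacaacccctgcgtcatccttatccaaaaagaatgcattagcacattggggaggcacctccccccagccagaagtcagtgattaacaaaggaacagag

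A member peak was present in both lists at 558 of the 1700 microRNA loci, which is 32.8% (95% interval 30.6 to 35.1). Another 530 loci had one in biosample 1 only, 4 in biosample 2 only and 608 in neither list. At the loci with peaks in both lists the strongest biosample 1 peak had a median percentile of 85.1 (quartiles 75.7 and 92.4), against 42.0 (21.1 and 59.5) at the loci found in biosample 1 alone. The 4 loci found in biosample 2 alone, Gm26113, Mir682, Gm27622 and 1 further predicted gene, were weak: their best peaks had a median percentile of 1.51. The longer list held almost all loci of the shorter one. Over the 558 loci the best percentiles of the lists had a Spearman's rho of 0.90, a description over loci that share libraries and, at most loci, the same peak. A pair of percentiles given for a locus below is that of its strongest peak in each list, and these can be different sites.

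**Figure D1:**
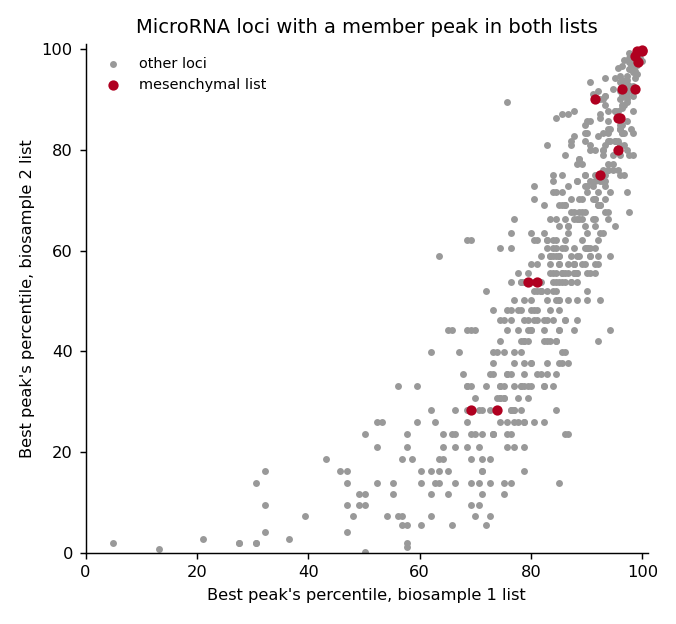
Score percentile of the strongest member peak in the biosample 1 list (x axis) and in the biosample 2 list (y axis) for each of the 558 microRNA loci with a member peak in both lists. Each point is 1 locus and red points are the 16 such loci of the mesenchymal list, most of which sit at the upper right.

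Of the 853 loci with a Mir symbol 334 carried member peaks in both lists, or 39.2% (35.9 to 42.5), and of the 847 without one 224 did, or 26.4% (23.6 to 29.5). Hairpins lying in the sense direction within a long noncoding RNA gene had the higher share among the single contexts, 49 of 102 loci or 48.0% (38.6 to 57.6), against 34.5% (31.2 to 38.01) within protein-coding genes, 32.3% (26.9 to 38.2) antisense to a gene and 26.6% (23.1 to 30.4) between genes. The intervals of the lncRNA context do not overlap those of the intergenic and protein-coding contexts. The rule left out peaks near protein-coding start sites but kept those near lncRNA start sites, so the contexts were not searched alike. The effect of this on the shares was not tested. Among Mir-symbol loci alone the order was the same for lncRNA hosts, at 52.9%, and protein-coding hosts, at 35.3%, but intergenic loci stood at 41.3%. Loci of 2 or more genes, whose searched windows are longer, had peaks in both lists at 66 of 133. Loci of other short RNA genes, found by the same distances, stood at 27.3% for snoRNA and 26.7% for snRNA.

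Of the 12 lists of microRNAs with known roles, those of mesenchymal and fat-related microRNAs had peaks in both biosamples at most of their loci. The count was 16 of 23 for the mesenchymal list and 13 of 18 for microRNAs known to restrain adipogenesis. It was 13 of 19 for those known to promote it and 7 of 11 for those tied to brown or beige fat. All loci stood at 32.8%, and loci with a Mir symbol, as the listed ones have, at 39.2%. Of the lists for other lineages, the neuronal one had 6 of 15, muscle 3 of 7, epithelium 3 of 6, blood 2 of 8, liver and endothelium 2 of 3 and pluripotent cells 2 of 2. Cell cycle and p53 loci had 4 of 8 and imprinted loci 4 of 8. All listed loci together had 62 of 110 in both lists, 24 in biosample 1 only and 24 in neither. The lists are not separate: their 128 entries cover 110 loci, and 7 loci, among them Mir23a and Mir99b, stand on both the mesenchymal list and that of restraining microRNAs. The median searched length was 10080 bp over all loci and 10077 bp over the mesenchymal list. The windows of that list ran from 5676 to 15664 bp and those of all loci from 2182 to 62993 bp. The effect of window length on the counts was not tested. The lists were written from textbook knowledge with earlier results of these data known, and the counts are a description without a test.

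**Figure D2:**
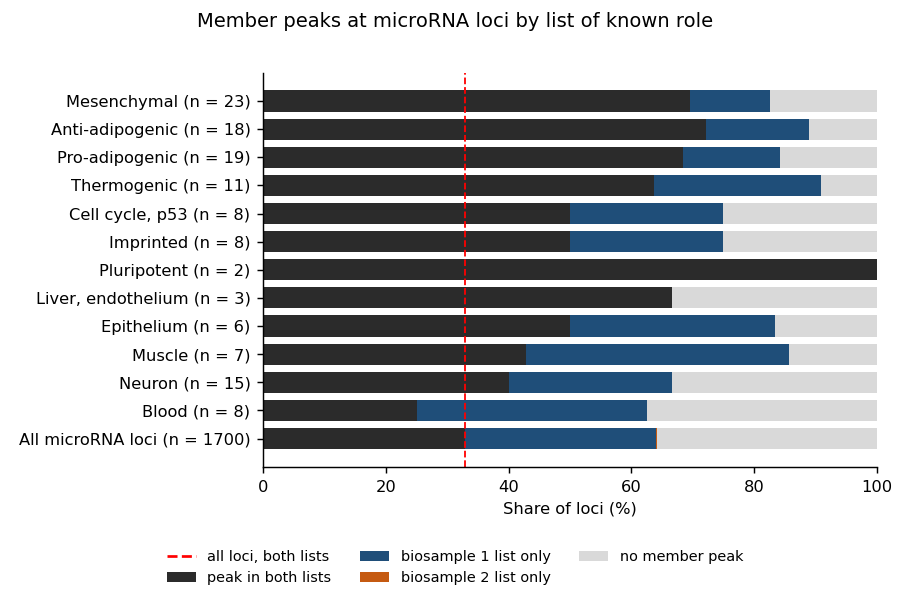
Share of loci (x axis, percent) with a member peak in both lists, in the biosample 1 list only, in the biosample 2 list only or in neither, for 12 lists of microRNAs by known role and for all 1700 loci, with the number of loci in brackets. The dashed line marks the 32.8% of all loci with a peak in both lists, and the blood list is the only bar whose black part ends to its left.

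The mesenchymal loci also ranked highest. Their strongest peaks had a median percentile of 95.5 in biosample 1 and 88.2 in biosample 2, beside 68.5 and 55.6 over all loci with a peak. They held 69.3 member peaks per 100 kb of searched sequence in biosample 1 and 28.3 in biosample 2, beside 18.8 and 5.53 over all loci. Loci with a Mir symbol held 22.7 and 6.89. The lowest medians were those of the blood list, at 39.3 and 18.7.

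**Figure D3:**
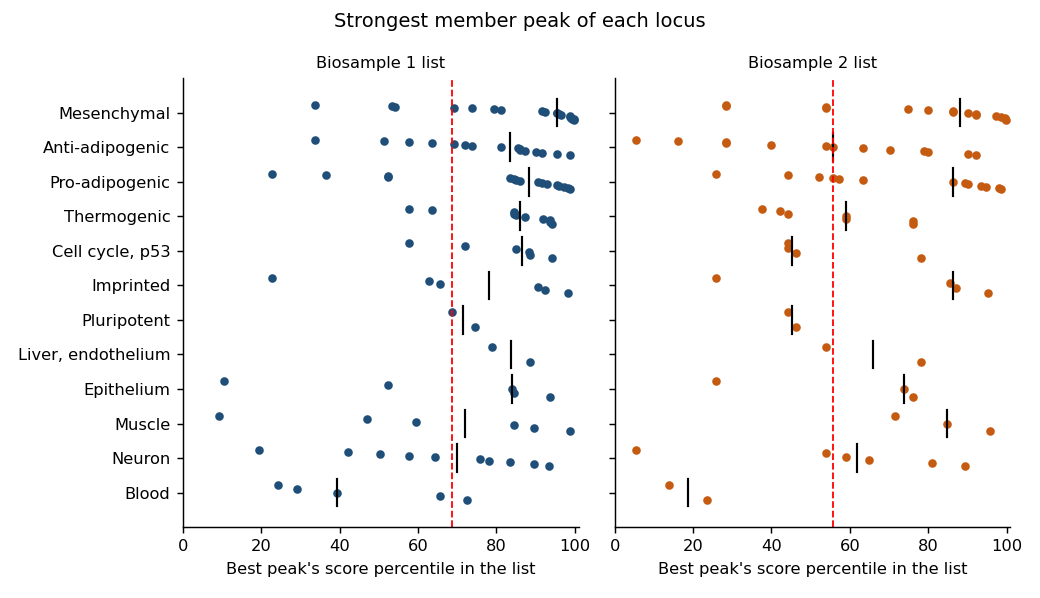
Score percentile of the strongest member peak of each locus within the biosample 1 list (left) and the biosample 2 list (right), for 12 lists of microRNAs. Points are loci that have a member peak, black bars are medians over them, and dashed lines are the medians over all loci, 68.5 and 55.6. Mesenchymal points crowd at the right end of both panels.

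Mir22 (chromosome 11, 75463716 to 75463810), which is known to act on growth and fat metabolism, had the highest mean percentile of all 1700 loci. It had 11 member peaks in biosample 1 and 7 in biosample 2, and all 7 met a biosample 1 peak, as did 94.7% of all distal biosample 2 peaks. Their scores ran from 54 to 149 in biosample 1 and from 17 to 112 in biosample 2. The strongest had a score of 149, at percentile 99.9, in biosample 1 and of 112, at 99.8, in biosample 2. They lay 2371 and 2231 bp upstream of the hairpin, and the biosample 1 peak was 194 bp from an annotated lncRNA start site. Another 3 biosample 1 peaks at this locus lay too close to protein-coding start sites to be members.

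Mir199a-2 and Mir214, which are cut from the lncRNA Dnm3os and mark mesenchyme in mouse embryos, form 1 locus on chromosome 1 from 162217814 to 162223477. It carried 18 peaks in biosample 1 with scores from 60 to 149 and 11 in biosample 2 with scores from 21 to 106. The strongest peaks, at percentiles 99.9 and 99.7, lay 169 and 189 bp upstream of the Mir199a-2 hairpin, and the biosample 1 peak overlapped an annotated lncRNA start site. Of the 18 biosample 1 peaks 10 met a biosample 2 peak, where 10.8 would have met one at the rate of all distal peaks of the same deciles. The full widths of the hotspots that reached the window of the locus summed to 11608 bp in biosample 1 and 6418 bp in biosample 2.

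The other 2 miR-199 loci ranked nearly as high. Mir199a-1, antisense to the dynamin gene Dnm2 on chromosome 9, had its strongest peaks at percentiles 98.97 and 99.6, at 352 and 312 bp upstream. Mir199b, antisense to Dnm1 on chromosome 2, had 13 and 8 peaks with scores from 48 to 146 and from 49 to 88. The strongest, at 99.3 and 97.4, lay 20 and 40 bp upstream of the predicted gene Gm23363 of the same locus. All 3 loci that encode the same miR-199 3p seed had their strongest peaks upstream in both lists and stood among the 20 loci with the highest mean percentile.

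Mir21a lies in the Vmp1 gene and encodes a microRNA abundant in fibroblasts. It had 11 peaks in biosample 1, with scores from 81 to 144, and 6 in biosample 2, with scores from 43 to 95, of which the strongest, at percentile 98.6 in both lists, lay 2918 and 2898 bp upstream of the hairpin in an intron. Of its 11 biosample 1 peaks 4 met a biosample 2 peak, where 7.51 would have at the rate of all distal peaks of the same deciles. The 5 biosample 1 peaks of the 2 highest deciles met one in 4 cases.

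**Figure D4:**
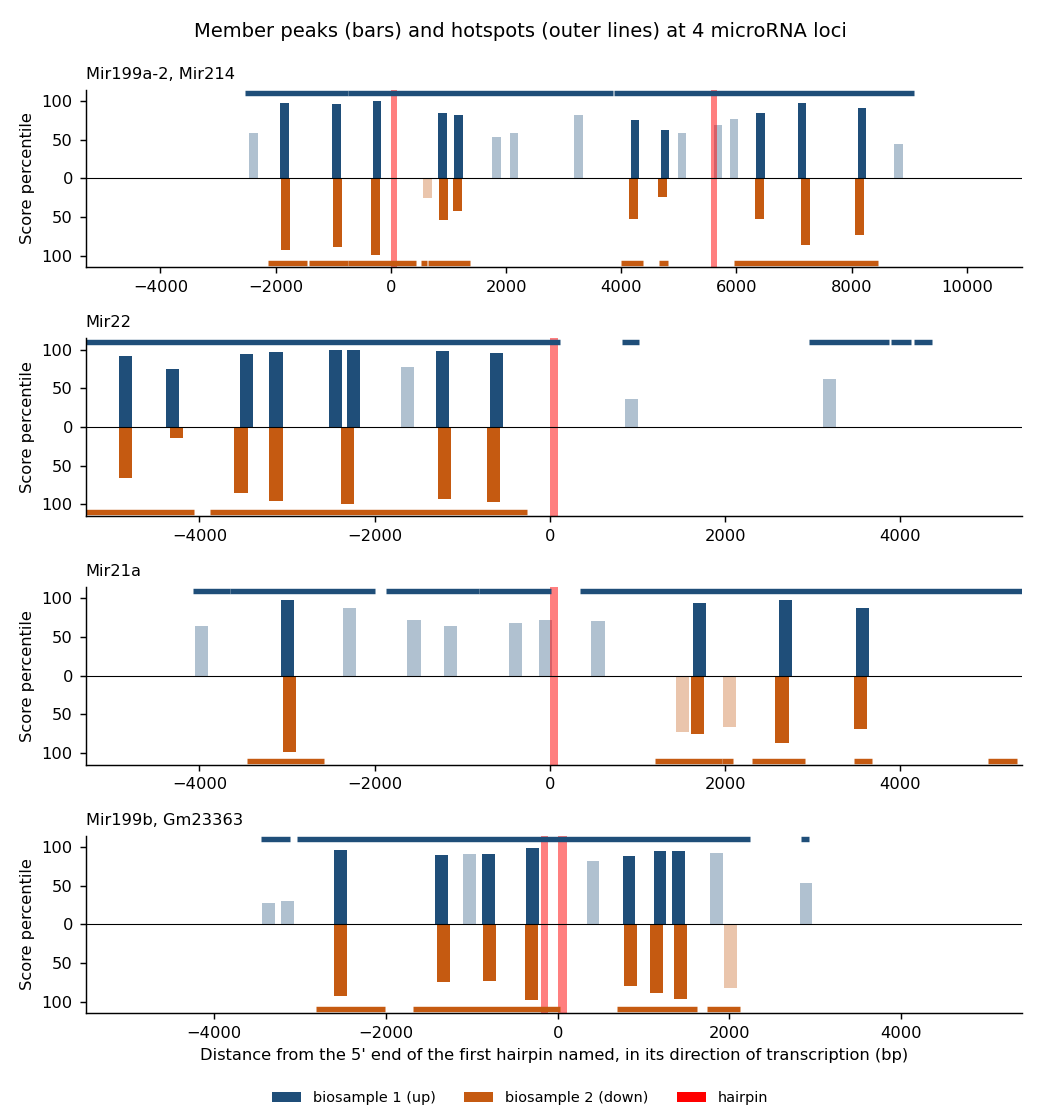
Member peaks at 4 loci by distance from the 5′ end of the hairpin named first in each panel (x axis, bp, in its direction of transcription). Bar height is the score percentile, upward for biosample 1 and downward for biosample 2, pale bars met no peak of the other list, outer lines are hotspots and red bands are hairpins. The tallest bars of both lists stand just upstream of Mir199a-2 and of Mir199b and over 2000 bp upstream of Mir22 and Mir21a.

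Further loci of the mesenchymal list had peaks in both lists at lower ranks. Mir29b-2 and Mir29c, whose family lowers collagen messages, had 2 peaks in each list, all shared, with the strongest at percentiles 95.5 and 86.4. Mir125b-2 had 7 and 6 peaks, and 6 of its 7 biosample 1 peaks met one of biosample 2. The rate of all distal peaks of the same deciles gives 4.22. Mir10a reached 79.4 and 53.8, and Mir99a 69.2 and 28.4. Mir10b, Mir140 and Mir100 had peaks in biosample 1 only, at percentiles of 54.2, 53.2 and 33.7. Mir196b, Mir152, Mir218-1 and Mir218-2 had no member peak. Mir152 and Mir196b did have 4 peaks and 1 peak of biosample 1 near protein-coding start sites, which the rule leaves out.

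The count of shared peaks fell furthest short of the rate of distal peaks at Mir125b-1. This hairpin, on chromosome 9 in overlapping lncRNA genes, had 18 member peaks in biosample 1, with scores from 49 to 138, and 3 in biosample 2, with scores of 73, 57 and 56. At the rate of all distal peaks of the same deciles 10.6 of the 18 would have met a biosample 2 peak, and 3 did. Of the 9 in the 2 highest deciles 3 met one. The full widths of the hotspots that reached its window, parts outside the window included, summed to 19239 bp in biosample 1 and 915 bp in biosample 2. Its copy Mir125b-2, with the same mature sequence, showed no such gap. Mir125b-1 was singled out after the values were seen, and the reason for the gap was not tested.

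Mir29a, Mir23a and Mir3064 also carried many peaks in 1 list, where all loci together held 3066 member peaks in biosample 1 and 904 in biosample 2. Mir29a had 17 and 3 peaks and Mir23a 17 and 4, while Mir3064, in the RNA helicase gene Ddx5, had the most of any locus in biosample 1, 20, and 1 in biosample 2. Mirlet7i went the other way, with 13 peaks in biosample 1 and 12 in biosample 2, the most of any locus there, although its best peak in biosample 2 reached only percentile 63.5. The record n-TStga1, which carries a transfer RNA gene symbol although it is typed as miRNA, had 19 and 9.

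Among microRNAs known to promote adipogenesis, Mir210, induced by low oxygen, followed Mir21a at percentiles 98.3 and 98.0. Its strongest peaks did not meet: they lay 10 bases apart, and each lay in a hotspot of the other list. The biosample 1 window holds a CTCF core match, shown in capitals on the plus strand of GRCm38.
Mir210 chr7:141221816-141221965: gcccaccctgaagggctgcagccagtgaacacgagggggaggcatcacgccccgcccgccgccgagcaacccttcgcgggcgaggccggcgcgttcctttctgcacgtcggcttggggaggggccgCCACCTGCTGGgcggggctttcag

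All 3 miR-26 loci, each inside a gene of the Ctdsp phosphatase family, had peaks in both lists. Mir26b had 5 and 4 peaks with the strongest at 96.0 and 94.7, 2982 bp downstream in both lists. Mir26a-1 reached 97.2 and 89.5 and Mir26a-2 83.4 and 57.3. The miR-30 family was split: the joint Mir30b and Mir30d locus reached 90.6 and 93.5, Mir30a 92.9 and 63.5 and Mir30c-2 86.1 and 55.6, whereas the locus of Mir30c-1 and Mir30e had no member peak. Mir148a reached 84.5 and 52.0.

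The seed family of miR-103 and miR-107, encoded in introns of the pantothenate kinase genes, had no locus with peaks in both lists. Mir103-1 and Mir103-2 each had 1 peak in biosample 1, at percentiles 52.2 and 36.6, and Mir107 had none. Mir17, the head of the miR-17~92 cluster that acts on cell division, had 5 and 3 peaks at up to 85.1 and 44.2. Mir335, in the imprinted Mest gene, had 2 weak peaks in biosample 1 only, and Mir204 had none.

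Among microRNAs known to restrain adipogenesis, the locus of Mir23a, Mir27a and Mir24-2 ranked highest, with best percentiles of 98.6 and 92.1. Its 2 strongest peaks did not meet and lay 30 bases apart, 4693 and 4873 bp upstream of Mir23a. The paralogous Mir23b and Mir27b locus had 5 and 2 peaks at up to 73.8 and 28.4. Mir130b reached 87.2 and 70.3 with 1 peak in each list. Mir130a had 10 peaks in biosample 1 and 1 in biosample 2, at 86.1 and 39.9. Mir33, an intronic microRNA of the sterol regulator gene Srebf2, had none.

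The let-7 family, which lowers the growth regulator HMGA2, was split as well. Of 8 loci with the let-7 seed among the genes matched in RefSeq, Mir1961 and Mir7k included, 4 had peaks in both lists, 2 in biosample 1 only and 2 in neither. Mirlet7a-2, in the Mir100 locus, is not among the 8 and had 1 peak in biosample 1 only, at 33.7. Mirlet7b, in 1 locus with Mirlet7c-2, reached 86.1 and 79.0, the Mir99b, Mirlet7e and Mir125a locus 95.5 and 80.0, and Mirlet7i 90.1 and 63.5. Mirlet7g had 1 peak in biosample 1 at 51.2, and the locus of Mirlet7d, Mirlet7f-1 and Mirlet7a-1 had no member peak.

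Mir143 and Mir145a, of which the former promotes adipogenesis and both mark smooth muscle, had 7 peaks in biosample 1 with scores from 65 to 127 and 3 in biosample 2 with scores of 69, 57 and 39. The strongest was at percentile 90.1 in biosample 2 and 91.5 in biosample 1, at 3900 and 3920 bp downstream of the nearest hairpin. Mir378a, in the coactivator gene Ppargc1b, had 6 and 2 peaks at up to 95.5 and 86.4. Mir6361, a microRNA of no list, had its hairpin overlapped by a peak in both lists, at 92.4 and 50.2.

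Of the microRNAs tied to brown fat, Mir182, which belongs also to the epithelial list, reached 93.8 and 76.0. Mir196a-1 reached the same percentiles with 3 and 1 peaks, and Mir196a-2, in the Hoxc5 gene, 84.5 and 58.9. Mir193a had 10 peaks and 2 peaks at up to 91.97 and 58.9, while Mir193b, known to support brown fat differentiation, had 6 and 1 at 84.5 and 42.1. Mir455 and Mir328 had peaks in biosample 1 only, and Mir203 had none.

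Among cell cycle and p53 loci, Mir194-2 and Mir192 reached 88.7 and 78.1, Mir34a, a p53 target, 94.2 and 44.2, and Mir34c and Mir34b 88.2 and 46.3. Mir15b, in the condensin gene Smc4, had 12 peaks in biosample 1, with the best at 71.9. None of the 12 met a biosample 2 peak, beside 28.0% of all distal biosample 1 peaks, a share that was lower among weaker peaks. Mir15b was not among the 10 loci whose counts fell furthest short of the rate of distal peaks of the same deciles. Mir16-1 and Mir15a in Dleu2 had no member peak. No locus of the shared miR-15 and miR-16 seed had peaks in both lists, out of 7 among the genes matched in RefSeq.

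Loci of the 6 lists of other lineages had peaks in both biosamples at 18 of 41, in biosample 1 only at 12 and in neither at 11. Per 100 kb all loci held 18.8 and 5.53 peaks and loci with a Mir symbol 22.7 and 6.89. The neuronal list held 13.2 and 4.88, below both. Muscle had 19.8 and 9.92 and pluripotent cells 22.03 and 8.81, between these rates in biosample 1 and above both in biosample 2. Epithelium had 27.2 and 8.51 and liver and endothelium 28.3 and 16.1, above both. Mir499, in the myosin gene Myh7b, reached 98.6 and 95.7 with 5 and 3 peaks, and Mir206, a skeletal muscle microRNA, 89.6 and 84.9. Mir1a-1 had 1 biosample 1 peak at 46.9 and Mir208b none. Mir9-1 lies in a locus that reached 93.3 and 80.9. The locus of Mir132 and Mir212, known as activity-induced neuronal microRNAs, reached 75.7 and 89.5, at different sites in the lists. Mir124a-1, Mir9-2, Mir128-1, Mir128-2 and Mir153 had none. Mir124a-3 had 1 peak in biosample 1 only, and Mir124a-2 had 1 in each list, at 57.8 and 5.57.

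The label of a fibroblast line was checked with 5 mesenchymal and 12 other lineage markers. All 5 mesenchymal markers, Mir199a-2, Mir214, Mir21a, Mir22 and Mir29a, lie at loci with peaks in both lists, and the first 2 of these share 1 locus. Of the 12 others, 6 also lie at such loci: Mir206, Mir9-1, Mir205, Mir290a, Mir302a and Mir126a. Over all loci with a Mir symbol the share with peaks in both lists was 39.2%. The markers were chosen with earlier results of these data known. Mir1a-1, Mir200a and Mir141 had peaks in biosample 1 only, and Mir124a-1, Mir142 and Mir122 had no member peak, although 1 biosample 1 peak at the Mir142 locus was left out for its closeness to a start site. Mir223, which lies on the X chromosome, was not analysed here. The mesenchymal list beyond these markers also held loci without peaks in both lists, and the other lists held loci that ranked high, such as Mir499.

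Blood loci had the lowest density, with 7.86 and 2.62 peaks per 100 kb. Mir181a-2 reached 65.7 and 23.5 and Mir342 72.5 and 13.9, Mir150, Mir146 and Mir181d had 1 biosample 1 peak each, and Mir142, Mir144 and Mir181a-1 had no member peak. Of the epithelial loci, Mir205 reached 84.0 and 73.9, Mir375 52.2 and 25.9, and Mir141 with Mir200c 84.5 in biosample 1 only. The pluripotency clusters of Mir302b and Mir290a had 1 biosample 2 peak each, at 46.3 and 44.2. Mir126a, an endothelial microRNA in Egfl7, had 2 peaks in each list at up to 78.8 and 53.8.

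Of the imprinted microRNA clusters on chromosome 12, 2 had peaks in both lists. The Mir379 cluster, 44 microRNA genes of which some lie in the lncRNA Mirg, reached 98.3 and 95.4. Of its 8 biosample 1 peaks 1 met a biosample 2 peak, beside 28.0% of all distal biosample 1 peaks. The Mir770 cluster by Meg3, which includes Mir127, had 10 and 3 peaks at up to 92.4 and 87.0, and Mir341 with Mir370 in Rian had 5 in biosample 1 only, at up to 65.7. Mir675 in H19 reached 62.7 and 25.9. Mir483 in Igf2 and the Mir466m cluster of the Sfmbt2 gene, the locus with the longest searched window at 62993 bp, had no member peak.

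The 20 loci with the highest mean percentile held loci of no list as well. Gm47291 in the endoglin gene Eng reached 99.3 in both lists, Mir6931 in Dcakd 99.5 and 98.3, and Gm47301 99.9 and 97.6. Gm22420, Mir6976 in the gene of serum response factor Srf, Mir1953 and Mir3109 in Anxa2 followed, at means of 98.6, 98.5, 98.4 and 98.3. Mir6935 in the actin gene Actg1, Mir6979 in Diaph1, Gm44491, Mir8111, Mir7032, Mir7028 and Mir1900 had means from 97.9 down to 97.4. The best biosample 1 peaks of these loci stood 170 to 4964 bp from the hairpin.

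Peaks that overlapped the hairpin itself were 2.51% of the members in biosample 1 and 2.65% in biosample 2. The median microRNA gene spans 90 bp, beside a median searched length of 10080 bp, and the share under even placement was not computed. Of the 2054 microRNA genes a peak overlapped 75 in biosample 1 and 23 in biosample 2. Both lists had a peak over 19 genes, of which 15 carry a Mir symbol. Mir6387 in Trib2 ranked highest among these at percentiles 98.97 and 95.1. Other such hairpins included Mir7680 at 97.2 and 93.9, Mir344 at 90.6 and 85.7, Mir6416 at 91.1 and 70.3, Mir6406 at 92.9 and 64.9, Mir1983 at 85.1 and 58.9, Mir3086 at 80.6 and 48.3, Mir344i at 75.7 and 46.3 and Mir206 at 79.97 and 33.1. The Mir344 genes, 13 on chromosome 7, recurred: 7 were overlapped in biosample 1 and 4 of these also in biosample 2. Their likeness in sequence was not compared, and the placement of reads that these genes might share was not tested.

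The mature sequences of hairpins overlapped in both lists, 20 in RefSeq, were searched for the motifs other than the E-box. Matches were found in 3, and the share over all mature sequences was not computed. In Mir6406 AP-1 letters lay at bases 14 to 20 of the mature strand, outside the seed. In Mir6387 and Mir206 the TEAD letters lay at bases 2 to 7, within the seed, inside the peak windows of both lists. The Mir6387 peak of biosample 1 is shown on the plus strand of GRCm38 with TEAD and RUNX matches in capitals, below the 2 mature sequences with their seeds in capitals.
miR-206-3p: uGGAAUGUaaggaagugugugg
miR-6387: uGGAAUGGcuucccuuguguau
Mir6387 chr12:15801056-15801205: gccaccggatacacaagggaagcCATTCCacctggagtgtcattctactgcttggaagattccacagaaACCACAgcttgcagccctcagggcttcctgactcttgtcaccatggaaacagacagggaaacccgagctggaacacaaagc

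The share of member peaks that met a peak of the other list, by at least 1 bp, was near that of all distal peaks. In biosample 1 848 of 3066 members met one, 27.7% (26.1 to 29.3), beside 28.0% of all 250707 peaks more than 1000 bp from protein-coding start sites. In biosample 2 853 of 904 did, 94.4% (92.7 to 95.7), beside 94.7%. Of the 51 biosample 2 members that met none, 42 lay in a hotspot of biosample 1 and 29 within 150 bp of one of its peaks. The strongest of those that met none were near Mir210, Mir6945, Mir23a, Mir7671 and Mir7000, with 10 to 110 bases to the nearest biosample 1 peak. The strongest such members of biosample 1 were near Mir23a, Mir210, Mir6976, Mir7671 and Mir125b-1, and the last of these lay 2070 bases from the nearest biosample 2 peak.

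Members ranked somewhat higher than distal peaks in all, with median percentiles of 52.2 against 46.9 in biosample 1 and 53.8 against 46.3 in biosample 2. At a given rank they were shared less often in biosample 1. In decile 7 of its scores 24.6% of members met a biosample 2 peak (20.4 to 29.4) and 35.7% of all distal peaks, in decile 8 53.6% (48.1 to 58.9) and 63.6%, and in decile 9 77.4% (72.5 to 81.6) and 86.4%. In decile 10 the values were 95.7% (92.6 to 97.5) and 93.6%. At the rates of all distal peaks of the same deciles 978 members would have met a peak, against 848 seen. Members also lay closer to protein-coding start sites, at a median of 10882.5 bp against 28972 bp, and within the same deciles and bands of that distance the rates give 928. Within the same deciles and classes of exon, intron, lncRNA and intergenic position they give 965. These groupings were chosen after the values were seen. Without the 10 loci with the largest gaps, led by Mir125b-1, 826 met a peak where the deciles give 921.

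**Figure D5:**
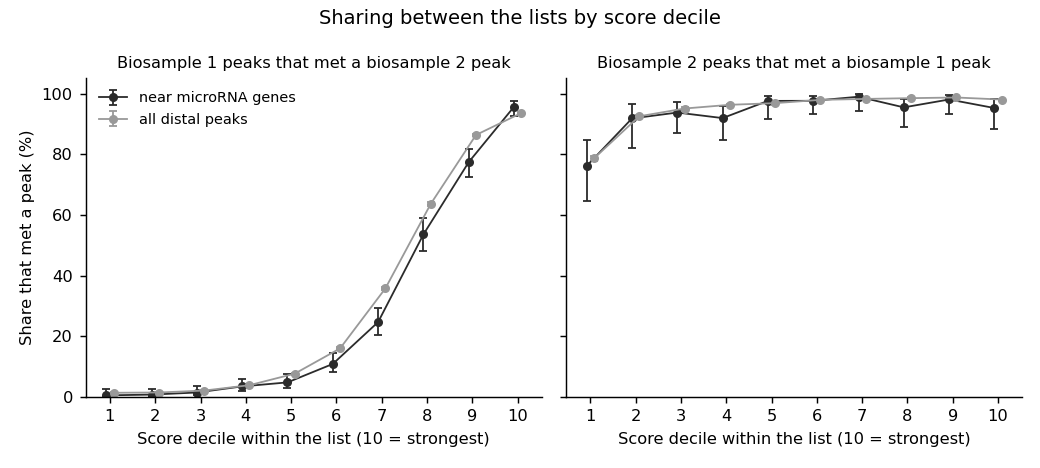
Share of peaks that met a peak of the other list (y axis, percent, with 95% Wilson intervals) by score decile within the list (x axis, 10 the strongest), for member peaks near microRNA genes and for all distal peaks. In the left panel, biosample 1, the members lie below the distal peaks in deciles 1 to 9, with the widest gaps in deciles 6 to 9, and meet them in decile 10. Their intervals include the distal share in deciles 1 to 4. In the right panel, biosample 2, both are near the top from decile 2 on.

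Member peaks were denser than distal peaks in all. The searched sequence, 16.4 Mb, held 188 peaks per Mb in biosample 1 and 55.3 in biosample 2, against 107.4 and 31.8 over the 2334 Mb of these chromosomes outside start-site zones. By the same distances 1066 snoRNA loci had 1769 and 456 peaks and 1264 snRNA loci 1604 and 537, beside 3066 and 904 at the 1700 microRNA loci. Peaks per Mb were not computed for snoRNA and snRNA. Of the biosample 1 members 19.3% lay within 1000 bp of the hairpin without overlapping it and 18.3% in the outermost 1000 bp of the window. In biosample 1 45.3% were upstream (43.6 to 47.1), 52.2% downstream and 2.51% overlapped the hairpin, and in biosample 2 48.7%, 48.7% and 2.65%. At the edge of the rule, the last member of biosample 1 lay 5000 bp from Mir1969 at percentile 71.9 and the nearest peak outside lay 5002 bp from Mir6926 at 52.2.

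Members lay more often in exons of protein-coding genes than distal peaks in all, 14.4% against 5.28% in biosample 1 and 10.6% against 4.81% in biosample 2, and more often within 1000 bp of an lncRNA start site, 5.02% against 2.09% and 6.42% against 2.73%. Their windows were slightly richer in G and C, with medians of 48.7% against 47.3% in biosample 1 and 49.3% against 48.0% in biosample 2. Hotspots by the same rule had median widths of 271 and 253 bp beside 264 and 260 bp for all distal hotspots.

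Motif letters were counted in windows of 150 bp on both strands. AP-1 letters (TGANTCA), bound by the Fos and Jun factors, were in 18.8% of biosample 1 members (17.4 to 20.2) against 24.3% of all distal peaks, and in 25.4% of biosample 2 members (22.7 to 28.4) against 31.2%. The rate of distal peaks of the same decile, distance band and GC class was 22.6% and 29.6%. SP/KLF letters (GGGCGG) were in 5.54% (4.79 to 6.41) against 3.32%, and in 7.52% (5.98 to 9.43) against 4.45%, and the matched rates were 4.43% and 6.18%. TEAD letters (GGAATG) were in 12.5% against 14.0% and in 14.6% against 15.1%, and the CTCF core in 4.40% against 4.04% and in 9.40% against 8.88%. RUNX letters (TGTGGT) were in 19.1% against 18.6% and 20.02% against 18.7%, C/EBP letters (TTGCNNAA) in 6.88% against 7.81% and 5.97% against 8.40%, and the E-box (CANNTG), which can overlap other motifs, in 60.4% against 63.1% and 58.5% against 61.5%. The lower AP-1 share near microRNA genes was present in both lists, with intervals that exclude the share of distal peaks, and no test was made. A match of letters is not a site of binding.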

How the data were processed

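DNase-seq libraries of 3T3-L1 cells were used, 4 libraries of 2 biosamples, assigned by their biological replicate numbers. The authors' peak and hotspot lists, per the labels' description files, each derive from a single mm10 alignment shared by the libraries of a biosample. Aligner and caller are not given in the sources used here. Each deposited peak score is a whole number up to 150 used only as a rank within its list. The deposited hotspot value is a −log10 q value capped at 100 and was not ranked. Depth is unknown.

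MicroRNA genes and start sites of protein-coding transcripts came from GENCODE M21, sequences from RefSeq on GRCm38.p6, which has the chromosome sequences of mm10. Distances ran from peak edges to the gene or start site. Membership and overlap were tested on simulated intervals. Analyses used Python with numpy, pandas and scipy. Loci are named as members of 12 role lists (in full for the 4 of highest mean percentile), the 20 loci of highest mean percentile, the 5 with most peaks, the 5 strongest peaks that met none and the 10 highest overlapped hairpins. A locus without a peak counted 0 in its mean. The members and lists were chosen with earlier results of these data known. Symbols not found in the annotation were Mir885, Mir466a and Mir297a-1. Because tests over regions would treat peaks as replicates, values are descriptions. Alternatives for window, start-site distance, score, unit and overlap were tried.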

Additional observations from a re-analysis of the deposited data

How the results depend on the processing

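With 1 pooled list per biosample no replicate could be left out. No paired analysis was possible because the results come from no test. The number of microRNA loci with a member peak in both lists, 558, became 262 within 2000 bp and 847 within 10000 bp of the gene, 332 with the stronger 50% of each list and 333 of 854 with Mir symbols only. It stayed within 1.5 times of 558 under the other 6 alternatives: 603 and 507 with start-site distances of 500 and 2000 bp, 547 with hotspots, 558 from midpoints, 631 genes counted singly and 548 where peaks had to meet. The share of biosample 2 members that met a biosample 1 peak, 94.4%, moved to 97.2% with the stronger 50% and to 89.4% with an overlap of 50% of both peaks. That of biosample 1 members, 27.7%, moved to 29.4% with start sites over 2000 bp away and 29.5% with the stronger 50%. Under the other alternatives the shares stayed within their intervals. The cause was not tested, except that fewer peaks qualify in smaller windows. Unknown depth limits every comparison of list length.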

Other observations

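Of the 608 loci without a member peak, 63 had a biosample 1 peak that the rule left out for its closeness to a protein-coding start. The loci after Mir125b-1 with the largest gap between the biosample 1 peaks that met a biosample 2 peak and the count that deciles of all distal peaks give were Gm47311, with 0 of 12 against 3.96, Mir21a, with 4 of 11 against 7.51, and Gm26377, with 1 of 12 against 4.12. These loci were ranked after the values were seen. At Mir6926 0 of 7 met one against 2.66. Mir344, Mir344i, Mir344d-1 and Mir344g were overlapped by a peak in both lists, at biosample 1 percentiles of 90.6, 75.7, 64.2 and 48.0 and biosample 2 percentiles of 85.7, 46.3, 23.5 and 7.36.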
